A study of Mus musculus with 469 samples.

Results

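Crabp1, Crabp2 and the 6 genes of the retinoic acid and retinoid X receptor families (Rara, Rarb, Rarg, Rxra, Rxrb and Rxrg) were followed across single cells of the mouse olfactory epithelium. They were chosen by name, and all 8 were among the 23281 gene entries used. Crabp1 was included because its level was lower in OMP-eGFP than in Neurog1-eGFP cells, so that difference is described here and supports nothing else. The families were placed beside it because they carry the same ligand or respond to it.

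Retinoic acid is made from vitamin A by retinol and retinal dehydrogenases, acts on the nucleus and is broken down by enzymes of the Cyp26 family. Crabp1 and Crabp2 encode small cytosolic proteins that bind it. Crabp2 is known for passing the ligand to nuclear receptors, and Crabp1 for holding it in the cytosol and handing it to breakdown enzymes. Rara, Rarb and Rarg encode the receptors for retinoic acid, which bind DNA as partners of the retinoid X receptors encoded by Rxra, Rxrb and Rxrg. Retinoid signalling is known to act in the formation of the olfactory epithelium and in its basal cells in the adult, where globose basal cells give rise to Neurog1-positive precursors, then to Gap43-positive immature neurons and then to neurons with Omp.

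Rarb is both a receptor of the set and a classical target of retinoic acid, through a response element just before its inner start site. The sequence before that start is shown because, among the windows available for 7 of the 8 genes, only it held such an element in the spacing searched. It comes from RefSeq on GRCm38.p6, minus strand, chr14:16575477-16575726, and ends at the base before the start. The direct repeat is in capitals.
Rarb: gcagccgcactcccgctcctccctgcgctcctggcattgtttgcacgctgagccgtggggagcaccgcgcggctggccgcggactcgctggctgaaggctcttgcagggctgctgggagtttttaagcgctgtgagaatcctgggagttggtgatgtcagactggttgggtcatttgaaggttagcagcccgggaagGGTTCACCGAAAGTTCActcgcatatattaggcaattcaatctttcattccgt
The repeat spans chr14:16575513-16575529, from 53 to 37 bases before the start, and has 5 bases between its half-sites. The half-sites searched on both strands were the canonical AGGTCA, then the variant letters AGTTCA, then the variant letters GGTTCA and then the variant letters GGGTCA, each of which can overlap other nuclear receptor motifs. Of 32851 windows that run from 250 bases before to 50 bases after a gene start, 43.7% held a half-site and 32 (0.0974%) held 2 in direct repeat with that spacing. Of the 14 windows of the 7 genes that matched the table, 7 held a half-site and 1 held the repeat. Crabp2 had no window there and was not searched. The window of Crabp1 held no half-site, which says nothing about sequence outside it. These matches are letters in a window and no binding was measured here.

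The cells were captured with the Fluidigm C1 system, which isolates single cells and amplifies their polyadenylated RNA, from mice aged 8 weeks. There were 3 sorts of FVB Neurog1-eGFP cells, in which eGFP marks cells that express or have recently expressed Neurog1: uninjured (61 libraries), 5 days (51) and 14 days (26) after removal of the olfactory bulb, which kills the neurons that project to it. There were 2 sorts of B6 OMP-eGFP cells, marked by the reporter of mature neurons: 14 days after bulb removal (50) and engrafted cells taken after transplantation (89), for which the labels give no donor, host or time. The reference was wildtype, uninjured, unsorted epithelium of B6;129SF1/J (F1) mice in 2 runs (96 each). Reporter, strain and sort therefore cannot be told apart. No animal is named, so each group counts as 1 sample: no test was made between groups, and intervals on shares are exact 95% intervals over cells that cover sampling of cells only. Libraries with 1000 or more genes were used: 46, 48 and 25 of the Neurog1 sorts in the order above, 42 and 29 of the OMP sorts, and 68 and 70 of the reference runs.

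Recovered depth ran from 13369 to 2186046 fragments per library, with medians of 501827 to 1347936 per group. Levels are given as CPM, a gene's share of the library scaled to 1000000, and a gene counts as found where a cell reached 10 CPM, about 5.02 to 13.5 fragments at those medians. Labels and markers matched in part. Neurog1 was found in 53 cells of its own sorts (23 of 46, 18 of 48 and 12 of 25) and in 0 of 71 OMP-eGFP cells, and Omp in 41 of 42 and 22 of 29 cells of the OMP sorts but also in 52 Neurog1-eGFP cells (27, 17 and 8). A Y-linked gene was found in 29 of 46, 44 of 48 and 19 of 25 cells of the Neurog1 sorts, in 0 of 42 OMP-eGFP cells at 14 days, in 16 of 29 engrafted cells and in 4.35% of reference cells. These shares differ between the groups compared, also among the Neurog1 sorts, so sex and group cannot be told apart. In the first reference run 9 libraries stood apart, with over 10000 genes each and markers of many cell types at once. They held Crabp1, Rarg, Rxra and Rxrb in 9 of 9, and shares and mean levels of the members in the reference are given with and without them, or said to include them; without them the reference holds 129 cells.

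Crabp1 had the highest mean FPKM, a level per length, of the 8 genes in every Neurog1-eGFP sort and was found in 4 of 71 OMP-eGFP cells. In uninjured Neurog1-eGFP cells its CPM ran from 0 to 2173 with a median of 148.2, and it was found in 29 of 46 cells (63%, 47.5 to 76.8). At 5 days it ran from 0 to 2581 with a median of 0, and was found in 21 of 48 (43.8%, 29.5 to 58.8). At 14 days it ran from 0 to 1488 with a median of 52.8, and was found in 17 of 25 (68%, 46.5 to 85.1). High and empty cells lay side by side in all 3 sorts, and the sorts overlapped over most of their range.

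In OMP-eGFP cells at 14 days Crabp1 was found in 1 of 42 (2.38%, 0.0603 to 12.6), at a CPM of 72.7, and the next cell was at 0.882. That one cell was in the cluster with sustentacular markers described further on. Engrafted cells had Crabp1 in 3 of 29 (10.3%, 2.19 to 27.4), with a highest CPM of 197.1. Those 3 cells were in the immature-like cluster low in Omp described further on. That cluster held 4 of 29 engrafted cells and 0 of 42 OMP-eGFP cells at 14 days. Reference cells had Crabp1 in 31 of 129 (24%, 16.9 to 32.3), and with the 9 libraries the share was 29% (21.6 to 37.3). Cells were also thinned to 200000 fragments, which left out 27 shallower ones (2, 0 and 1 of the Neurog1 sorts, 0 and 5 of the OMP sorts and 19 of the reference). In the cells left, the thinned shares were 63.6%, 45.8% and 66.7% in the Neurog1 sorts, 2.38% and 12.5% in the OMP sorts and 30.3% in the reference with the 9 libraries. The same cells before thinning gave 65.9%, 43.8%, 66.7%, 2.38%, 12.5% and 30.3%.

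**Figure D1:**
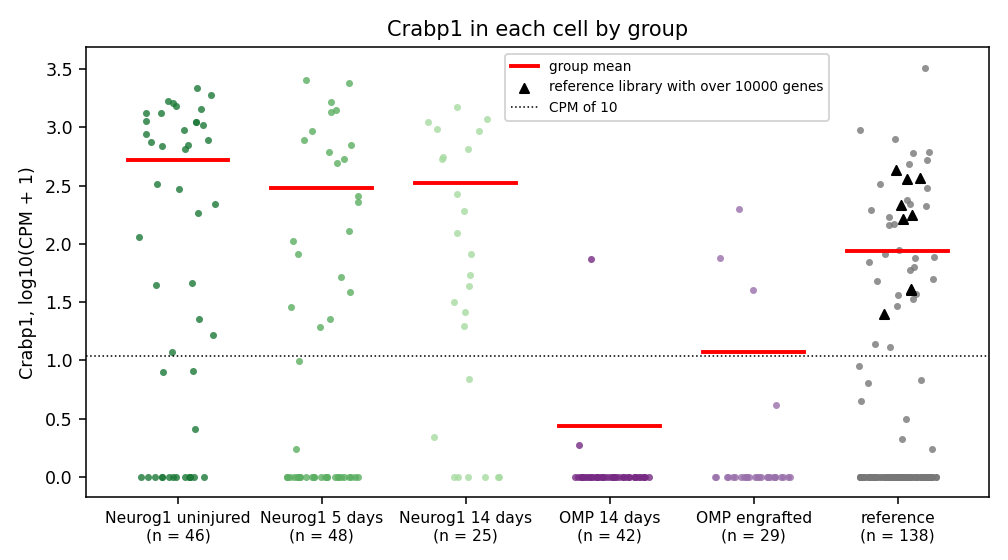
Crabp1 in each kept cell, as log10(CPM + 1), by group; red lines are group means, the dotted line is a CPM of 10, and triangles are the 9 reference libraries with over 10000 genes. The Neurog1-eGFP sorts hold many cells above a CPM of 100, while 1 of 42 OMP-eGFP cells at 14 days lies above the dotted line.

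Mean Crabp1 was 525.3 CPM in uninjured, 300.7 in 5 day and 330.7 in 14 day Neurog1-eGFP cells. The log2 ratio of mean CPM + 1 to uninjured cells, a scale that understates low genes, was -0.80 at 5 days and -0.67 at 14 days, within 2-fold both times. Between 5 and 14 days it was 0.14. At 14 days the mean was 1.75 in OMP-eGFP cells, a log2 ratio of -6.91 to the Neurog1-eGFP cells of the same day, the difference for which the gene was chosen. Without the highest cell of each group that ratio was -8.12. Uninjured Neurog1-eGFP cells stood above the reference (mean 85.4) by 2.61, or by 2.75 without the 9 libraries, and the reference mean without them was 77.3. The reference runs had means of 87.7 (70.4 without the 9 libraries) and 83.1. Engrafted over 14 day OMP-eGFP cells gave 2.11 from means of 10.8 and 1.75, which rest on 3 cells and 1 cell. Strain, injury and sort differ between these groups as listed above, and their parts in the ratios were not tested.

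To see which cells carried the genes, all kept libraries were grouped into 12 clusters on variable genes that excluded the 8 members and the other retinoid genes. Clusters were named only from markers. A pair held the precursor markers Tex15, Elavl2 and Hes6 in common (26 and 24 cells). The first of the pair also held Neurog1, Neurod1 and Sox11, while the second rested on the shared precursor markers alone. Both also held the immature neuron markers Gng8 and Dpysl3. A small cluster with precursor markers had the mitotic genes Kif11 and Ccnb1 among its leading genes (9 cells). Of the clusters like immature neurons, 1 had Gap43 in 40 of 40 cells and little Omp, and the other rested on 4 of 10 markers and had Gap43 in 44 of 47 and Omp in 43 of 47. The latter also held the mature neuron markers Gnal and Gng13. It had Stoml3, also a mature neuron marker, in 40 of 47 cells at a mean of 2446 CPM, against 9 of 40 at 16.4 in the former. Its name therefore covers cells with markers of both stages. A pair was like mature neurons (29 and 23 cells). A cluster of 40 cells had 10 of 10 sustentacular markers and a cluster of 30 had 3 of 10. With 8 clusters in place of 12, the cluster of 30 fell in a cluster of 85 cells like mature neurons. A cluster of 19 reference cells had 10 of 10 sustentacular markers but was left unnamed, since Aqp5, a gland marker, was among its leading genes. A cluster of 32 cells was left unnamed for want of markers. It held 11 of 42 OMP-eGFP cells at 14 days and 6, 5 and 3 cells of the Neurog1 sorts in order. Crabp1 was found in 5 of the 32, all 5 Neurog1-eGFP cells. Omp was found in 26 of the 40, 28 of the 30 and 19 of the 19 cells of the 3 clusters with sustentacular markers. Its mean was 456.6 CPM in the 40 and 2066 in the 19, where the lowest cell had 283.3, against 7553 in the mature-like pair. The part of this neuronal RNA in the values below was not tested.

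Crabp1 was found in 26 of 26 and 21 of 24 cells of the precursor-like pair, 47 of 50 together (94%, 83.5 to 98.8), at a mean of 945.2 CPM. It was found in 0 of 9 cells of the mitotic cluster, where every cell had a CPM of 0 and the median depth was 1308884 fragments; 0 of 9 allows a share of up to 33.3%. In the immature-like cluster low in Omp it was found in 12 of 40 (interval 16.6 to 46.5%) at a mean of 86.4, and in the one with Omp in 8 of 47 (17%, 7.65 to 30.8) at a mean of 6.41. In the mature-like pair it was found in 1 of 52 (1.92%, 0.0487 to 10.3) at a mean of 1.44. Crabp1 was thus highest in the precursor-like pair, not seen in the 9 mitotic cells and lower in the immature-like and mature-like clusters.

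The share of cells in the precursor-like pair was 22 of 46 (47.8%, 32.9 to 63.1) in uninjured, 16 of 48 (33.3%, 20.4 to 48.4) in 5 day and 9 of 25 (36%, 18 to 57.5) in 14 day Neurog1-eGFP cells. Within that pair Crabp1 was found in 21 of 22 cells at a mean of 1063 CPM, in 14 of 16 at 735.6 and in 9 of 9 at 827.3. The cells ranged up to 2173, 2581 and 1488 and the groups overlapped. Outside the pair the means were 32.5, 83.3 and 51.4. The low-Omp immature-like cluster held 21 of the 48 cells at 5 days against 4 of 46 uninjured cells, and of those 21 Crabp1 was found in 3. Of 67 Neurog1-eGFP cells with Crabp1, 44 were in the precursor-like pair. With 8 clusters in place of 12, the pair and the mitotic cells were merged and Crabp1 was found in 47 of 59 cells at a mean of 801.0.

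**Figure D2:**
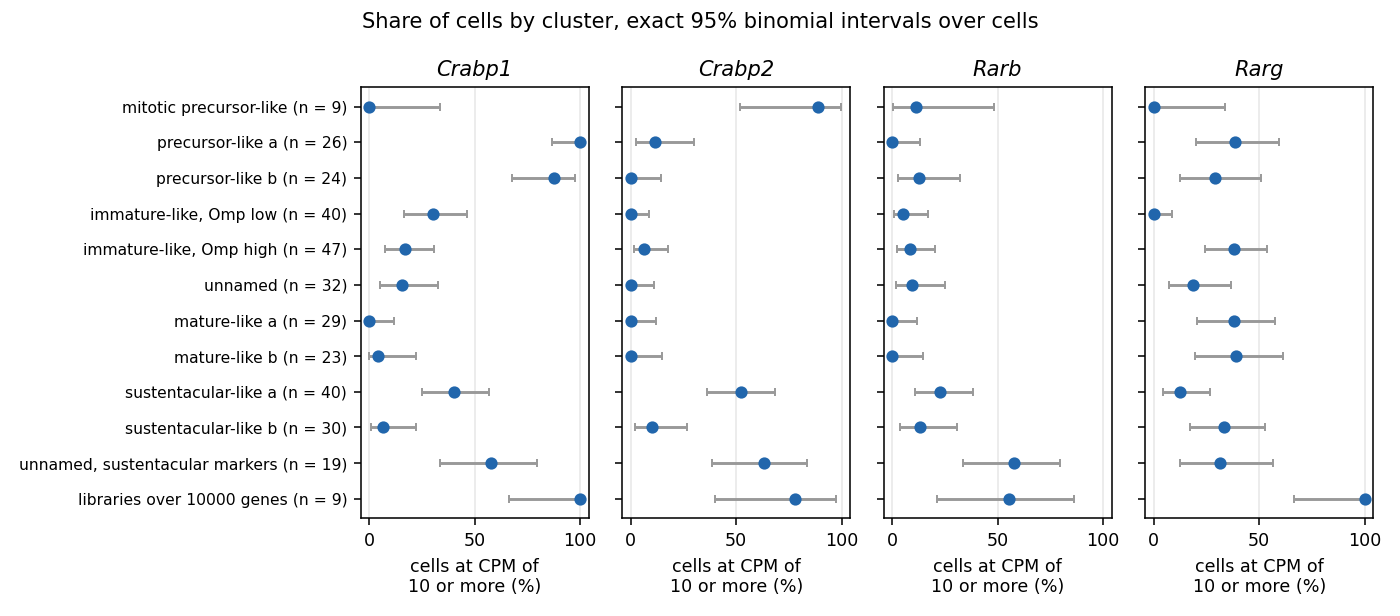
Share of cells at a CPM of 10 or more for Crabp1, Crabp2, Rarb and Rarg in each cluster (n in the row labels), with exact 95% binomial intervals over cells. Crabp1 and Crabp2 are reversed between the mitotic cluster (0 of 9 and 8 of 9 cells) and the larger precursor-like pair, and Rarg is at 0 of 40 in the immature-like cluster low in Omp. The row named sustentacular-like b (n = 30) rests on the sustentacular markers Ermn, Krt18 and Hes1 only.

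Over the 3 Neurog1-eGFP sorts together, Crabp1 was found in 37 of 53 with Neurog1 (69.8%) and in 30 of 66 without it (45.5%). It was found in 37 of 77 cells with Gap43 (48.1%) and in 30 of 42 without it (71.4%). Gng8, a G protein subunit of immature neurons, was the opposite: Crabp1 was found in 60 cells with Gng8 (59.4% of them) and in 7 of 18 without it (38.9%). Within the sorts the relation to Gap43 ran the same way each time (13 of 24 against 16 of 22 uninjured, 12 of 35 against 9 of 13 at 5 days, 12 of 18 against 5 of 7 at 14 days). Those to Neurog1 and Gng8 held in uninjured cells (19 of 23 against 10 of 23, and 26 of 36 against 3 of 10) and at 5 days, but not at 14 days, where 8 of 12 cells with Neurog1 and 9 of 13 without it had Crabp1, and 14 of 22 with Gng8 and 3 of 3 without it.

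**Figure D3:**
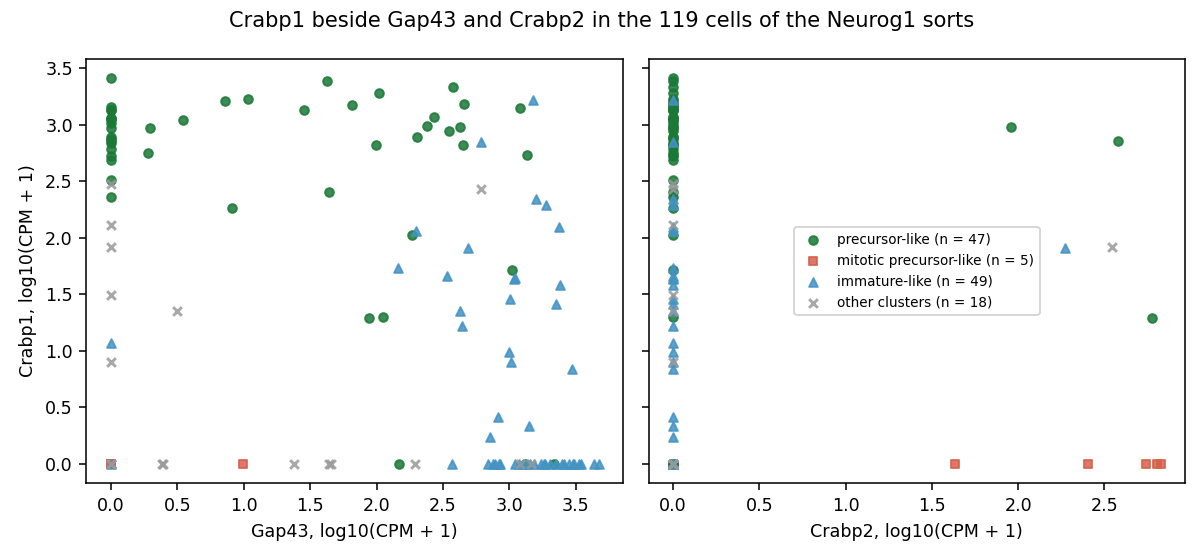
Crabp1 against Gap43 (left) and Crabp2 (right) in the cells of the 3 Neurog1-eGFP sorts, each axis log10(CPM + 1), coloured by cluster. Of the 67 cells with Crabp1 found, 37 also have Gap43 and 5 also have Crabp2, while the 5 mitotic precursor-like cells of these sorts have Crabp2 and no Crabp1.

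Crabp1 was also found in reference cells that were not precursor-like. In the cluster of 40 with sustentacular markers it was found in 16 (24.9 to 56.7% of them) at a mean of 95.3, of which 14 were among its 31 reference cells, and in the 19 cells left unnamed in 11 (57.9%, 33.5 to 79.7) at 71.1. In the cluster resting on 3 markers, 27 of whose 30 cells were from the second reference run, it was found in 2. Mature-like cells of the same reference had Crabp1 in 1 of 35, a lower share than in either of these clusters. Of the reference cells 3 were in the precursor-like pair (2.17%), and they had 802.3 CPM as their median and 3254 as the highest value of the series.

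Crabp2 was rare in the sorts and common in the reference. It was found in 3 of 46, 4 of 48 and 3 of 25 cells of the Neurog1 sorts in order, with highest values of 668.7, 636.4 and 254.5 CPM, and the median was 0 in each. OMP-eGFP cells had it in 3 of 42 and 0 of 29, and 0 of 29 allows a share of up to 10.3%. Reference cells had it in 37 of 129 (28.7%, 21.1 to 37.3), and in 31.9% (24.2 to 40.4) with the 9 libraries, with a highest value of 2032. The Crabp2 mean was 135.6 in the first reference run (151.1 without the 9 libraries) and 39.5 in the second.

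By cluster Crabp2 showed a pattern unlike that of Crabp1. It was found in 8 of 9 mitotic cells (88.9%, 51.8 to 99.7) at a mean of 367.2, from all 3 Neurog1 sorts (1, 2 and 2 cells) and from the reference (3 of 4 cells). In the precursor-like pair it was found in 3 of 50, in the low-Omp immature-like cluster in 0 of 40, in the one with Omp in 3 of 47 and in mature-like cells in 0 of 52 (a share of up to 5.77% is allowed). The other high clusters were those with sustentacular markers, 21 of 40 (52.5%, 36.1 to 68.5) at a mean of 222.98 and 12 of 19 (63.2%, 38.4 to 83.7) at 85.6. Together with Crabp1 it was found in 5 of the 72 Neurog1-eGFP cells that had either gene. In the reference both were found in 29 of the 55 cells with either, and in 22 of 46 without the 9 libraries. All 9 mitotic cells came from 4 groups, so few cells stand behind the contrast of the 2 binding proteins.

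Of the retinoic acid receptors, Rara and Rarb were found in fewer cells than Crabp1 or Crabp2 over all groups together. Rarg was found in fewer cells than Crabp1 but in more than Crabp2. Rara, the broadly expressed member of the family in many tissues, was found in 0 of 46, 0 of 48 and 2 of 25 cells of the Neurog1 sorts and in 2 of 42 and 0 of 29 of the OMP sorts. Its highest CPM was 158.9, in 1 cell at 14 days. In the reference it was found in 5 of the 9 libraries and in 0 of the 129 others, a count that allows up to 2.33% of cells. At these depths Rara was close to the limit of what could be seen.

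Rarb, whose upstream sequence is given above, was found in 2 of 46, 5 of 48 and 3 of 25 Neurog1-eGFP cells and in 2 of 42 and 2 of 29 OMP-eGFP cells. Its means of 2.09, 17.8 and 25.7 CPM in the Neurog1 sorts came mostly from single cells: at 5 days the highest 2 carried 90.2% of the signal and at 14 days 90.2%. Reference cells had it in 23 of 129 (17.8%, 11.7 to 25.5), and in 20.3% (13.9 to 28) with the 9 libraries. Rarb was found in 11 of 19 unnamed cells with sustentacular markers (57.9%, 33.5 to 79.7), in 9 of 40 sustentacular-like cells and in 0 of 52 mature-like cells. Among reference cells with Rarb, 21 of 28 also had Crabp2, and 16 of 23 without the 9 libraries. Of those 28 cells, 7 were in the sustentacular-like cluster of 40 and 11 in the unnamed cluster of 19. Crabp2 was found in 19 and 12 reference cells of the same clusters. The share with Crabp2 among reference cells without Rarb is not given here. A relation of Rarb and Crabp2 within clusters was not tested. Rarb overlaps Top2b on the opposite strand in the GRCm38 annotation, and the counting is not stated to use strand. Top2b was found in 65.9% of all kept cells, and 36 of the 42 cells with Rarb had it, so reads of Top2b could be among those given to Rarb.

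Rarg, a receptor known from epithelia, was the receptor found in the most cells. It was found in 12 of 46 (26.1%, 14.3 to 41.1), 8 of 48 (16.7%, 7.48 to 30.2) and 2 of 25 (8.00%, 0.984 to 26) Neurog1-eGFP cells. OMP-eGFP cells had it in 17 of 42 (40.5%, 25.6 to 56.7) at 14 days and in 7 of 29 (24.1%, 10.3 to 43.5) after engraftment. Reference cells had it in 36 of 129 (27.9%, 20.4 to 36.5), and in 32.6% (24.9 to 41.1) with the 9 libraries. Most values were low, with a median of 31.8 CPM among the 17 cells and a highest of 249.2. The reference mean was 78.3 in the first run (64.6 without the 9 libraries) and 12.3 in the second, and on the second run alone the log2 ratio of uninjured Neurog1-eGFP cells to the reference was 0.39 in place of -1.39.

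Along the neuronal clusters Rarg was found in 17 of 50 precursor-like cells (34%, 21.2 to 48.8), in 0 of 40 immature-like cells low in Omp, in 18 of 47 immature-like cells with Omp (38.3%, 24.5 to 53.6) and in 20 of 52 mature-like cells (38.5%, 25.3 to 53). The value of 0 of 40 allows a share of up to 7.50%, and the highest CPM there was 9.49. The median depth of that cluster was 1181836 fragments, between those of the clusters beside it in the list (1034467 and 816384 for the precursor-like pair, 1357593 for the other immature-like one). The cluster held cells of 5 groups, 21 of them from 5 days. Over the Neurog1-eGFP sorts Rarg and Crabp1 were often in the same cell: 19 of 22 cells with Rarg had Crabp1 (86.4%), against 48 of 97 without it (49.5%). By sort these were 9 of 12 against 20 of 34 in uninjured cells, 8 of 8 against 13 of 40 at 5 days and 2 of 2 against 15 of 23 at 14 days. Of the 22 cells with Rarg, 16 were in the precursor-like pair, where Crabp1 was found in 47 of 50 cells. A relation of the 2 genes within clusters was not tested.

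**Figure D4:**
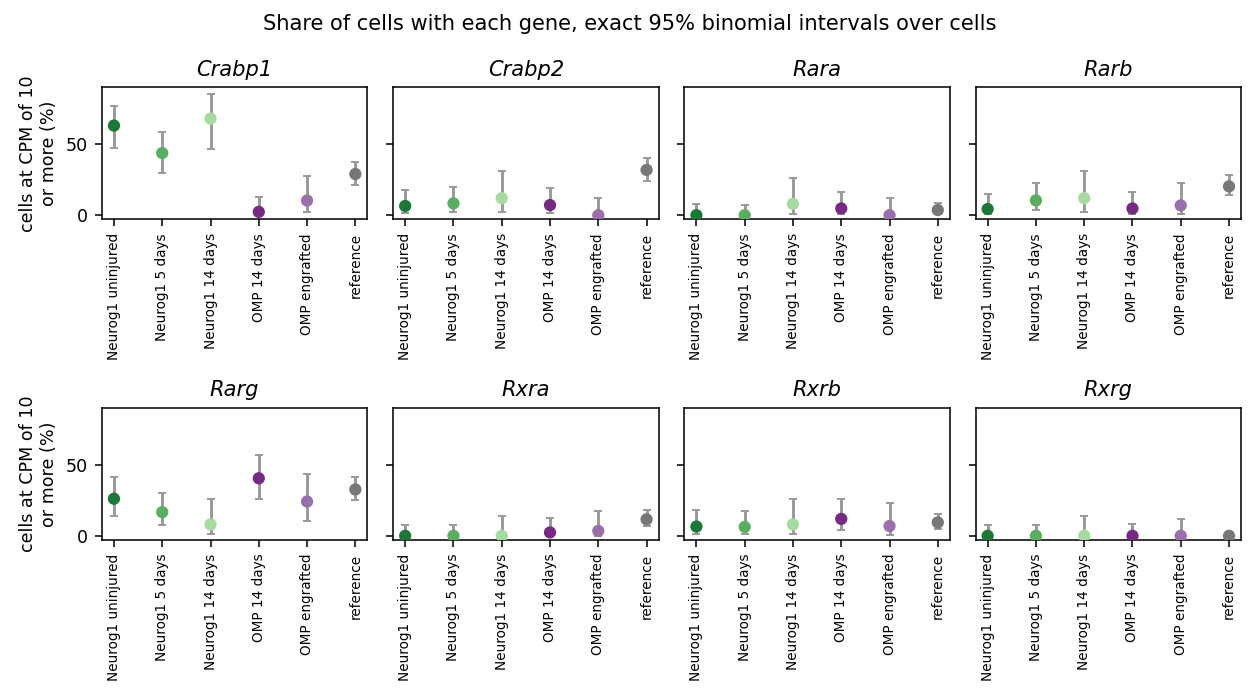
Share of cells at a CPM of 10 or more for each of the 8 genes in the 6 groups, with exact 95% binomial intervals over cells; the reference includes the 9 libraries with over 10000 genes. Crabp1 is highest in the 3 Neurog1-eGFP sorts, Rarg has 17 of 42 cells in the OMP-eGFP sort at 14 days, and Rxrg is at 0 throughout.

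The retinoid X receptors, the obligate partners of the family, were seldom found. Rxra was found in none of the Neurog1-eGFP cells (0 of 46, 0 of 48 and 0 of 25, which over the 3 allow up to 2.52% of cells), and in 1 of 42 and 1 of 29 OMP-eGFP cells. In the reference it was found in 9 of the 9 libraries and in 7 of the 129 others, all 7 in the second run. Rxrb was found in 3 of 46, 3 of 48, 2 of 25, 5 of 42 and 2 of 29 cells of the sorts in order and in 4 of 129 reference cells and 9 of the 9 libraries. Its highest value was 1994 CPM, in 1 cell at 5 days that fell in the cluster with 10 sustentacular markers. Without the highest cell of each group its direction turned in the comparisons of 5 days with uninjured, 14 days with uninjured, and OMP-eGFP with Neurog1-eGFP cells. Rxrg, known from muscle and brain, had a CPM of 0 in all cells but 1, at 2.0 in 1 of the 9 libraries.

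Cells in which both sides of the receptor pair could be seen were few. At least 1 retinoic acid receptor and at least 1 retinoid X receptor were found together in 1 of 46, 1 of 48 and 0 of 25 Neurog1-eGFP cells and in 2 of 42 and 2 of 29 OMP-eGFP cells. In the reference this held for 3 of 129 cells and for 9 of the 9 libraries. Of the 67 Neurog1-eGFP cells with Crabp1, 24 had a retinoic acid receptor, 5 a retinoid X receptor and 39 (58.2%) neither. A gene not found here may still be present below 10 CPM.

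Over whole groups, the members were counted where their mean was 5 CPM or more in either group, and called apart at 2-fold. Between OMP-eGFP and Neurog1-eGFP cells at 14 days 6 of 6 were apart, beside 61% of all genes so measured (32.4% higher and 28.6% lower), and Crabp1 had been chosen on this contrast, so nothing is read from the count. Rarg was higher in the OMP-eGFP cells (log2 ratio 2.36, means of 24.5 and 3.97), and the other 5 were lower. At 5 days over uninjured 2 of 5 were apart, beside 47.2% of all genes (20.9% higher, 26.3% lower): Rarb (2.61) and Rxrb (1.16), both higher, though Rxrb was at -0.84 without the highest cell of each group. At 14 days over uninjured 4 of 6 were apart, beside 51.9% (22% higher, 29.9% lower): Rara (2.84), Rarb (3.11) and Rxrb (1.32) were higher and Rarg (-1.82) was lower. Without the highest cell of each group Rara lost its call (0.59) and Rxrb turned (-2.12). At 14 over 5 days 3 of 6 were apart, beside 50.9% (23.8% higher, 27.1% lower): Rara (2.44) higher, Crabp2 (-1.17) and Rarg (-1.06) lower. Without the highest cells Rara was at 0.27, and the Rara mean of 6.84 at 14 days came nearly all from the 1 cell at 158.9 CPM. Between the sorts at 14 days Rara likewise went from -1.18 to -0.14, and Rxrb from -2.52 to 1.22. With 5 or 6 genes measured, these shares are not far from those of all genes, and the 3 comparisons share their groups. The median log2 ratio of the measured members was -1.85 between the sorts at 14 days, beside 0.04 for all genes. That median includes Crabp1, chosen on this contrast, so nothing is read from it either. At 5 days over uninjured the median was 0.82 beside -0.13, and at 14 days over uninjured 0.49 beside -0.17. At 14 over 5 days it was 0.15 beside -0.03.

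Between uninjured Neurog1-eGFP cells and the reference 5 of 6 were apart, beside 55% of all genes (22.4% higher, 32.6% lower). Crabp1 was higher (2.61), and Crabp2 (-1.77), Rarb (-3.75), Rarg (-1.39) and Rxra (-3.71) were lower, with a median of -1.58 beside -0.16 for all genes. Without the 9 libraries 5 were apart as well, at 2.75, -1.83, -3.81, -1.09 and -3.50 in the same order. On the second run alone 4 were apart: Crabp2 (-0.66) and Rarg (0.39) lost their calls and Rxrb gained one (1.53). Between engrafted and 14 day OMP-eGFP cells 5 of 5 were apart, beside 56.7% (21.7% higher, 35% lower). Crabp1 (2.11), Rarb (4.31) and Rxrb (1.57) were higher in the engrafted cells and Crabp2 (-3.31) and Rarg (-1.24) lower, with a median of 1.57 beside -0.34. The engrafted Rarb mean of 32.4 came from 1 cell at 920.0, and without the highest cell of each group 1 member was apart; Rarb was then at 0.26 and Crabp2 at -0.72.

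Levels of different genes can be set side by side only per length, for which the deposited FPKM values were averaged. In uninjured Neurog1-eGFP cells Crabp1 stood first with a mean of 893.1 FPKM, then Crabp2 at 33, Rxrb at 9.23, Rarg at 6.58 and Rarb at 0.787. Crabp2 and Rxrb were each found in 3 of those 46 cells, so their places rest on few cells. In OMP-eGFP cells at 14 days the order was Crabp2 at 12.3, Rarg at 9.57, Rxrb at 3.77 and Crabp1 at 3.12. Of those 42 cells Crabp2 was found in 3, Rarg in 17, Rxrb in 5 and Crabp1 in 1. The places of Crabp2, Rxrb and Crabp1 there rest on few cells. In the reference, with the 9 libraries, Crabp1 and Crabp2 were near each other at 181.1 and 134.4, followed by Rarg at 17.6, Rarb at 15.4 and Rxrb at 9.03. Without those libraries the means were 164.6, 140.1, 14.4, 16.1 and 7.09, so Rarb stood before Rarg. In all 3 Neurog1 sorts Crabp1 was first and Crabp2 second, the latter from the few cells with Crabp2 given above. No spread over animals exists to separate neighbours in these orders.

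**Figure D5:**
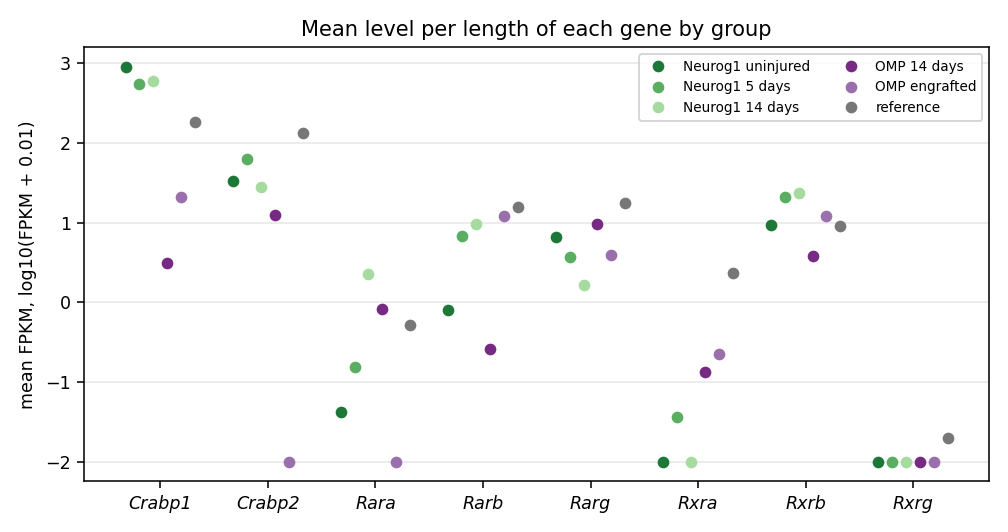
Mean FPKM of each gene in each group, as log10(FPKM + 0.01), so that a mean of 0 lies at -2. Crabp1 lies above the other genes in the Neurog1-eGFP sorts, from 540.6 to 893.1, and at 3.12 in OMP-eGFP cells at 14 days.

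The rest of the pathway was read from lists of genes. Of 16 genes of retinoic acid synthesis, 5 were measured between OMP-eGFP and Neurog1-eGFP cells at 14 days, 2 higher (Dhrs3 and Adh1) and 1 lower (Rdh13), with a median log2 ratio of 0.42 beside 0.04 for all genes. Dhrs3, which turns retinal back to retinol and is itself induced by retinoic acid, had means of 53.6, 18.2 and 1.22 CPM in the Neurog1 sorts and was found in 3 of 46, 3 of 48 and 1 of 25 cells. In the OMP sorts it was found in 13 of 42 and 6 of 29, at means of 126.7 and 152.3, and in the reference in 40 of 129 at 133.6. Of the uninjured Neurog1-eGFP signal of Dhrs3, 96.7% lay in 2 cells, while the OMP-eGFP signal at 14 days was spread over more (35.4% in the highest 2). The Adh1 mean came from 1 cell at 760.7 CPM. Aldh1a7, an aldehyde dehydrogenase close in sequence to Aldh1a1, was listed at 0 in all Neurog1-eGFP cells and found in 20 of 129 reference cells at a mean of 256.03. Aldh1a1, which makes retinoic acid, was found in 1 Neurog1-eGFP cell and in 12 of 129 reference cells. Its mean was highest in engrafted cells, at 216.9 CPM, against 0.0926 in 14 day OMP-eGFP cells and 50.8 in the reference with the 9 libraries. How many engrafted cells carried that mean is not given here. Of the 29 engrafted cells 4 were in the cluster of 40 with sustentacular markers, and their part in the mean was not tested. Reads can be shared between Aldh1a7 and Aldh1a1, so neither is certain.

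Fabp5, a fatty acid binding protein that can also carry retinoic acid, was found in 23 of 46, 30 of 48 (62.5%) and 14 of 25 (56%) Neurog1-eGFP cells. In OMP-eGFP cells it was found in 7 of 42 (16.7%) and 4 of 29 (13.8%), and in the reference in 11 of 129 (8.53%), or 12.3% with the 9 libraries. It and Dgat1 were the 2 measured of 11 genes of retinol storage and transport between the sorts at 14 days, both lower in OMP-eGFP cells (median log2 ratio -2.53). The Fabp5 means in the same order were 45.6, 45.1, 35.01, 12.8, 8.62 and 12.01 CPM, the last being 10.2 without the 9 libraries. Across cells within the Neurog1 sorts it did not follow Crabp1 closely, with a mean Spearman coefficient of 0.08.

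Of the 3 breakdown enzymes, Cyp26b1 was listed at 0 in all Neurog1-eGFP cells and 14 day OMP-eGFP cells. It was found in 3 of 29 engrafted cells at a mean of 15.5 CPM and in 3 of 129 reference cells at 23.6, with 99.1% of that reference signal in 2 cells. Engrafted over 14 day OMP-eGFP cells gave a log2 ratio of 4.05 for it. Cyp26a1 was found in 1 of 25 Neurog1-eGFP cells at 14 days, at 13.5 CPM, and Cyp26c1 was listed at 0 in every group. Of 12 target genes, 4 were measured at 14 days over uninjured, and Meis1, Nrip1 and Ret were higher and Dhrs3 lower, beside 51.9% of all genes apart. Their median log2 ratio was 1.67, beside -0.17 for all genes. The Ret mean of 26.5 at 14 days came from 1 cell and 89.7% of the Nrip1 signal from 2, so these calls rest on few cells.

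The 2 coregulators described here were picked for having the highest means of their list, so their shares are not set against those of the receptors. Ncoa1, a coactivator, was found in 43 of 46, 44 of 48 and 19 of 25 Neurog1-eGFP cells and in 37 of 42 and 24 of 29 OMP-eGFP cells, with means from 333.1 to 844.2 CPM. Ncor1, a corepressor, was found in 33 of 46, 33 of 48, 12 of 25, 34 of 42 and 16 of 29 of the same. Of 15 coregulators measured at 14 days between OMP-eGFP and Neurog1-eGFP cells, 11 were within 2-fold, 2 were higher and 2 lower, beside 61% of all genes apart. Their median log2 ratio was -0.09, beside 0.04 for all genes. Among 13 partner receptors, 2 were measured in that comparison, Thra and Nr1h2, both lower, and of 3 COUP-TF receptors 1 was higher and 1 lower (median log2 ratios of -1.54 and -0.49). Nr4a1, an immediate early gene, was found in 60 of 129 reference cells and in 1 Neurog1-eGFP cell, and Nr4a2, of the same family, in 30 and in 4. Nr2f2, a COUP-TF receptor, was found in 39 of 129 reference cells, 1 of 42 OMP-eGFP cells at 14 days and 5 of 46, 7 of 48 and 2 of 25 Neurog1-eGFP cells.

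The genes whose levels ran most like Crabp1 across cells were sought within each Neurog1 sort, as the mean of 3 Spearman coefficients over 46, 48 and 25 cells. Of 2984 genes found in 20% or more of the cells of each sort, Tex15 was first (0.71; 0.75, 0.72 and 0.65 in the 3 sorts), followed by Ebf2 (0.56), Zmynd8, Col9a2, Ptma, Cxcr4, Ldhb, Eya2, Bbx and Smchd1 (0.51). Tex15 and Cxcr4 are also in the marker lists used for the clusters. Tex15 had means of 5946, 3639 and 5675 CPM in the Neurog1 sorts and 143.8 in 14 day OMP-eGFP cells. Col9a2, Cxcr4 and Eya2, which encode a collagen chain, a chemokine receptor and a transcription cofactor, had means of 0.344, 0 and 0.483 in 14 day OMP-eGFP cells. The rest were not near 0 there: Ebf2 had a mean of 2779 CPM, Ptma 874.5, Ldhb 653.5, Smchd1 197.7, Zmynd8 102.1 and Bbx 35.8. The genes least like Crabp1 were Cntn4 (-0.54), an adhesion molecule of axons, Serpine2, Scg5, Syt4 and Acsl6 (-0.44). Of the stage markers Gng8 had 0.36 (rank 44), Neurog1 0.30 (rank 89), Neurod1, a precursor factor, 0.08 (rank 777), Omp -0.20 (rank 2683) and Gap43 -0.37 (rank 2954). Cells of a sort differ in depth as well, and these coefficients describe the cells without a test.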

How the data were processed

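The authors deposited 2 tables with a column per library. The first holds signal, fragments per gene that the authors scaled to a near-equal total, and the second holds FPKM made by the authors. Build mm9 and the tools Cuffnorm, Cufflinks 2.2.1, STAR 2.5.2a and FastQC are named per the submitters' processing notes; annotation, strand use and what each tool did are not given in the sources used here. Whole counts had been planned for, but 99.0% of nonzero values were not whole, so signal was divided by its column sum and given as CPM. Of 23308 entries, 27 named as dates were left out (0.418% of signal). Fragments were recovered from the smallest step of each kept library (median 98.4%, lowest 97.0% of values whole multiples, tolerance 0.02). Of 469 libraries, 328 with 1000 or more genes at a value of 1 were kept, 13369 to 2186046 fragments deep. No doublet caller was run.

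Shares have exact Clopper-Pearson 95% intervals, and a share of 0 the limit of 3 in n cells. Ratios are log2 of mean CPM + 1, with no test. The 6 comparisons were those listed in the report. Clusters came from 2000 variable genes, 20 principal components and Ward linkage. Named were all 8 members, 6 stage markers, of each list up to 5 genes with the highest mean in any group, and the 10 genes most and 5 least like Crabp1, without odorant receptor, Gm, Rik and mitochondrial genes; cluster leading genes, Top2b and Adh1 were named after their values were seen. Members and lists were chosen with earlier results of these data known. Bco1, Hbb-bs and Hbb-bt did not match an entry. Sequences were from RefSeq. Alternatives changed the pseudocount, the gene limit, the cells kept, the reference run, the unit, the depth, the filter on means, the limit for found and the number of clusters. Scripts used Python 3.11.15, numpy 2.4.6, pandas 2.3.3, scipy 1.17.1 and matplotlib 3.10.9, and were tested on simulated data.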

Additional observations from a re-analysis of the deposited data

How the results depend on the processing

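No paired analysis was possible because the libraries carry no replicate numbers, animals or batches that link groups, and each group is 1 sample. Crabp1 kept its direction in 5 of 6 comparisons under the alternatives run; 14 over 5 days, 0.14, became -0.15 with a limit of 2000 genes, which also moved 14 days over uninjured from -0.67 to -1.03. Its size moved most in 2. For OMP-eGFP over Neurog1-eGFP cells at 14 days (-6.91) it was -4.86 with a pseudocount of 10, -8.23 with a limit of 2000 genes, -8.12 without the highest cells and -8.34 without the 8 sorted libraries with 5 or more sustentacular markers. For engrafted over 14 day OMP-eGFP cells (2.11) the same settings gave 0.83, 4.17 and, for the last, 3.68, and all libraries gave 0.87.

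The count of members 2-fold apart moved with a pseudocount of 10: from 2 to 1 at 5 days over uninjured, from 4 to 2 at 14 days over uninjured, from 3 to 0 at 14 over 5 days (1 on the FPKM table) and from 5 to 2 between the OMP sorts. The last was 2 with a limit of 2000 genes, 3 with all libraries, 1 without the highest cells and 3 without the 8 libraries.

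Among values 2-fold apart, direction turned for Rxrb, Crabp2 and Rarg. Rxrb gave 1.82, 1.22 and 1.5 (limit of 2000 genes, no highest cells, thinned) in place of -2.52 for OMP-eGFP over Neurog1-eGFP cells at 14 days, -1.75, -0.84 and -1.60 (the third without the 8 libraries) in place of 1.16 at 5 days, and -3.09, -2.12 and -2.78 (the third thinned) in place of 1.32 at 14 days. Crabp2 gave 1.37 with all libraries in place of -1.02 in the first of these. Rarg gave 0.39 on the second reference run alone in place of -1.39. Among values within 2-fold, besides Crabp1 above, at 14 over 5 days Rxrb (0.16) became -1.34, -1.28 and -3.99 (limit of 2000 genes, no highest cells, thinned) and Rarb (0.50) became -0.18 without the highest cells. For uninjured cells over the reference Rxrb (0.10) became -0.22, -0.08 and -0.09 in those settings and -0.62 on the first run. The causes were not tested, but the Rxrb means at 5 and 14 days in the Neurog1 sorts rest on 1 or 2 cells. Depth limits the receptors: at a CPM of 10, about 5.02 to 13.5 fragments, a gene not found may be present.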
